A study of Homo sapiens with 14 samples.

Results

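The genes of the RNase P, RNase MRP and Y RNAs were examined in T47D cells, an oestrogen and progesterone receptor positive breast cancer line. There were 6 genes, RPPH1, RMRP, RNY1, RNY3, RNY4 and RNY5, of the 58419 genes on chromosomes 1 to 22 and X. They were chosen by name, and each was read against the deposited peak regions over the RefSeq gene body with 100 bp on either side, and over 5 kb on either side for context. Chromatin immunoprecipitation had been done with an antibody against the progesterone receptor (PR) and with one against POLR3A, which forms the core of RNA polymerase III, after 1 h of ethanol (vehicle) or progesterone (P4). Both antibodies had 3 replicate libraries under each treatment, and each treatment had 1 pooled input. The values came as 4 peak lists, 1 per antibody and treatment, so there was no replicate check, no spread between replicates and no test of a difference between lists. The line is a single cancer line kept in medium with serum, and the labels give no dose of P4.

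RNA polymerase III makes short untranslated RNAs. RPPH1 encodes the catalytic RNA of RNase P, which removes the leader of precursor tRNAs, and RMRP encodes the RNA of the related RNase MRP, which acts on precursor ribosomal RNA and is mutated in cartilage-hair hypoplasia. The Y RNAs are bound by the Ro60 and La proteins and have been linked to the start of DNA replication. Unlike most tRNA genes, which are driven by elements inside the gene, these genes have promoters upstream of the gene. Such promoters have a TATA box and a proximal sequence element (PSE) bound by the SNAPc complex. They also have distal sites for the octamer factor POU2F1 and for ZNF143.

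The 6 genes lie on 3 chromosomes (GRCh38). RPPH1 is on chromosome 14 (20343071 to 20343411, 341 bp), 223 bp from the coding gene PARP2. RMRP is on chromosome 9 (35657750 to 35658019, 270 bp), 272 bp from the coding gene CCDC107 and 1323 bp from the coding gene ARHGEF39. The 4 Y RNA genes share a span of 45761 bp on chromosome 7, in the order RNY5 (148941488 to 148941571, 84 bp), RNY4 (148963315 to 148963410, 96 bp), RNY3 (148983755 to 148983856, 102 bp) and RNY1 (148987136 to 148987248, 113 bp). The gaps between them are 21743, 20344 and 3279 bp. RNY1 is 278 bp from the long noncoding RNA gene GHET1, and RNY4 is 3623 bp from the long noncoding RNA gene LOC124901768. The Y RNA genes are therefore neighbours of one another, and within 5 kb RNY1 and RNY3 share regions. In RefSeq, every one of these genes is a single untranslated transcript.

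None of the 6 genes had a promoter entry of its own in the RefSeq promoter table (GRCh38.p14), but 3 lie beside an entry of a neighbouring gene. RPPH1 and RMRP are transcribed away from PARP2 and CCDC107. The 250 bases before the neighbour's start therefore hold the promoter of the RNA gene, which is read on the other strand. The stretch before PARP2 starts inside RPPH1 itself, which ends at 20343411, so its first bases are gene body. These stretches are shown because the POLR3A regions reached into them, and the stretch before GHET1 because it starts 29 bp past RNY1. Capitals mark the motif matches named after them. Each is on the plus strand, at chr14:20343385-20343634, chr9:35658042-35658291 and chr7:148987277-148987526 in that order.
PARP2 (beside RPPH1): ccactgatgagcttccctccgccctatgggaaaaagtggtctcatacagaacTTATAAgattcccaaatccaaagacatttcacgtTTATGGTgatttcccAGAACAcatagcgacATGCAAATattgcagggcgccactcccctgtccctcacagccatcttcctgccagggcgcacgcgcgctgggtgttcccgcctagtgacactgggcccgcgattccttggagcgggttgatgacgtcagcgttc
CCDC107 (beside RMRP): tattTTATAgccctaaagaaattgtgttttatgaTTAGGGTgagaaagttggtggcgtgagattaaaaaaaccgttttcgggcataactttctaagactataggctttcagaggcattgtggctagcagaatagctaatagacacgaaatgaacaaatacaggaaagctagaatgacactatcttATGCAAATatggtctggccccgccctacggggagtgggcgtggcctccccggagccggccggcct
GHET1 (beside RNY1): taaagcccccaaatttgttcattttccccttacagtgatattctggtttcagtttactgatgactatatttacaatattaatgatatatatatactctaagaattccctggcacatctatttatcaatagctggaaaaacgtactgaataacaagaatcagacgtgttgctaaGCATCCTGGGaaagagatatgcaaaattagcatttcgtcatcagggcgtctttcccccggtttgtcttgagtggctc

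The motifs were searched on both strands over 300 bases, the 250 before and 50 after each neighbour's start. They were the octamer ATTTGCAT, a core of the PSE written ACCNTNA, the TATA box as TATAA, the ZNF143 motif as CCCA and ATGC parted by any 2 bases, the hexamer TGTTCT that steroid receptors such as PR recognise, and the receptor palindrome as GNACA and TGTNC parted by any 3 bases. Beside RPPH1, TATAA lay 26 to 31 bp past the gene, on both strands as overlapping matches, and the PSE core lay at 60 to 66 bp. The receptor hexamer followed at 75 to 80 bp and the octamer at 90 to 97 bp. Beside RMRP, TATAA lay at 27 to 31 bp and the PSE core at 57 to 63 bp, while the octamer was farther out at 208 to 215 bp. The TATA box and PSE core thus stood at nearly the same distance from both RNA genes, and the octamer did not. Beside RNY1, the ZNF143 motif at 202 to 211 bp was the only match, but the stretch searched begins at 29 bp, and the gene table does not give the side on which RNY1 starts. Of the 35116 promoters in the table, 1.77% held the octamer, 27.1% the PSE core, 20.4% the TATA box, 1.73% the ZNF143 motif, 14.8% the receptor hexamer and 0.39% the palindrome. A match is a run of letters and not a measured binding site.

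**Figure D1:**
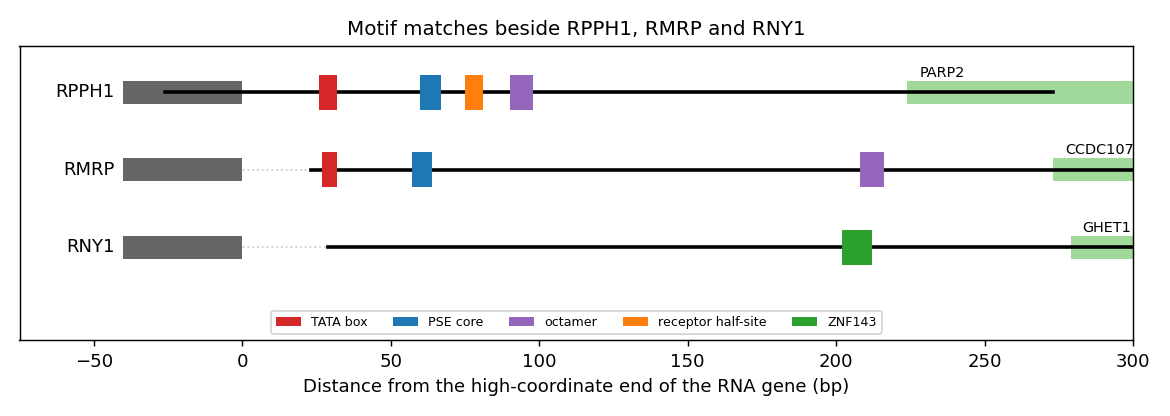
Motif matches beside RPPH1, RMRP and RNY1, by distance in bp from the high-coordinate end of the RNA gene (dark grey), with the neighbouring gene in green and the stretch searched as a black line. TATAA and the PSE core lie at 26 to 31 and 60 to 66 bp from RPPH1 and at 27 to 31 and 57 to 63 bp from RMRP.

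POLR3A was present at all 6 genes under both treatments. In the same window, a POLR3A region was found at 20.4% of all genes under vehicle and 23.5% under P4, and at 6.95% and 7.59% of the 9312 genes no longer than 400 bp. The member regions stood near the top of their lists by −log10 q, the significance over background that the authors gave each region, adjusted for multiple testing. The median percentile, the share of regions in the list with a lower value, was 99.4 under vehicle (29161 regions) and 99.7 under P4 (47904 regions). All POLR3A regions had a median −log10 q of 3.53 and 3.22. The q-value and the fold enrichment over background are the authors' own, they rank regions within a list, and they do not measure a change from 1 list to another.

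RMRP and RNY3 carried the strongest POLR3A regions. RMRP had a −log10 q of 531.0 with a fold enrichment of 86.66 under vehicle, and 493.6 with a fold of 72.41 under P4, ranks 64 and 84 of their lists. RNY3 had 523.5 with a fold of 82.64 under vehicle and 526.9 with a fold of 76.22 under P4, ranks 73 and 54. These genes exchanged first place between the lists, and the gaps between them could not be set against a replicate spread.

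RNY5 and RNY1 came next. RNY5 had a −log10 q of 316.8 in the vehicle list and 362.6 in the P4 list, with fold enrichments of 57.95 and 53.71. RNY1 had 261.8 and 312.1, with folds of 43.56 and 47.95. RPPH1 followed with 154.0 and 124.9 and folds of 33.76 and 26.0. The order RNY5, RNY1, RPPH1 was the same in both lists.

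RNY4 had the weakest POLR3A region of the 6 in both lists. Its POLR3A region had a −log10 q of 16.04 and a fold of 6.88 under vehicle, and 28.07 and 9.86 under P4, ranks 1400 and 760. It was also the gene whose POLR3A summit lay outside the gene body, 76 bp past the high-coordinate end under vehicle and 58 bp under P4. At the other 5 genes, the summit lay inside the gene body in both lists. Over the 6 genes, the median distance of the summit from the gene's midpoint was 35.5 bp under vehicle and 14.8 bp under P4. At RPPH1, the longest gene, the summit lay 101 bp and 98 bp from the midpoint on the PARP2 side. The RMRP summit was 30.5 bp below the midpoint under vehicle and 15.5 bp above it under P4. For RNY1 the distances were 2 and 14 bp, for RNY3 6.5 and 1.5 bp, and for RNY5 40.5 and 8.5 bp.

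**Figure D2:**
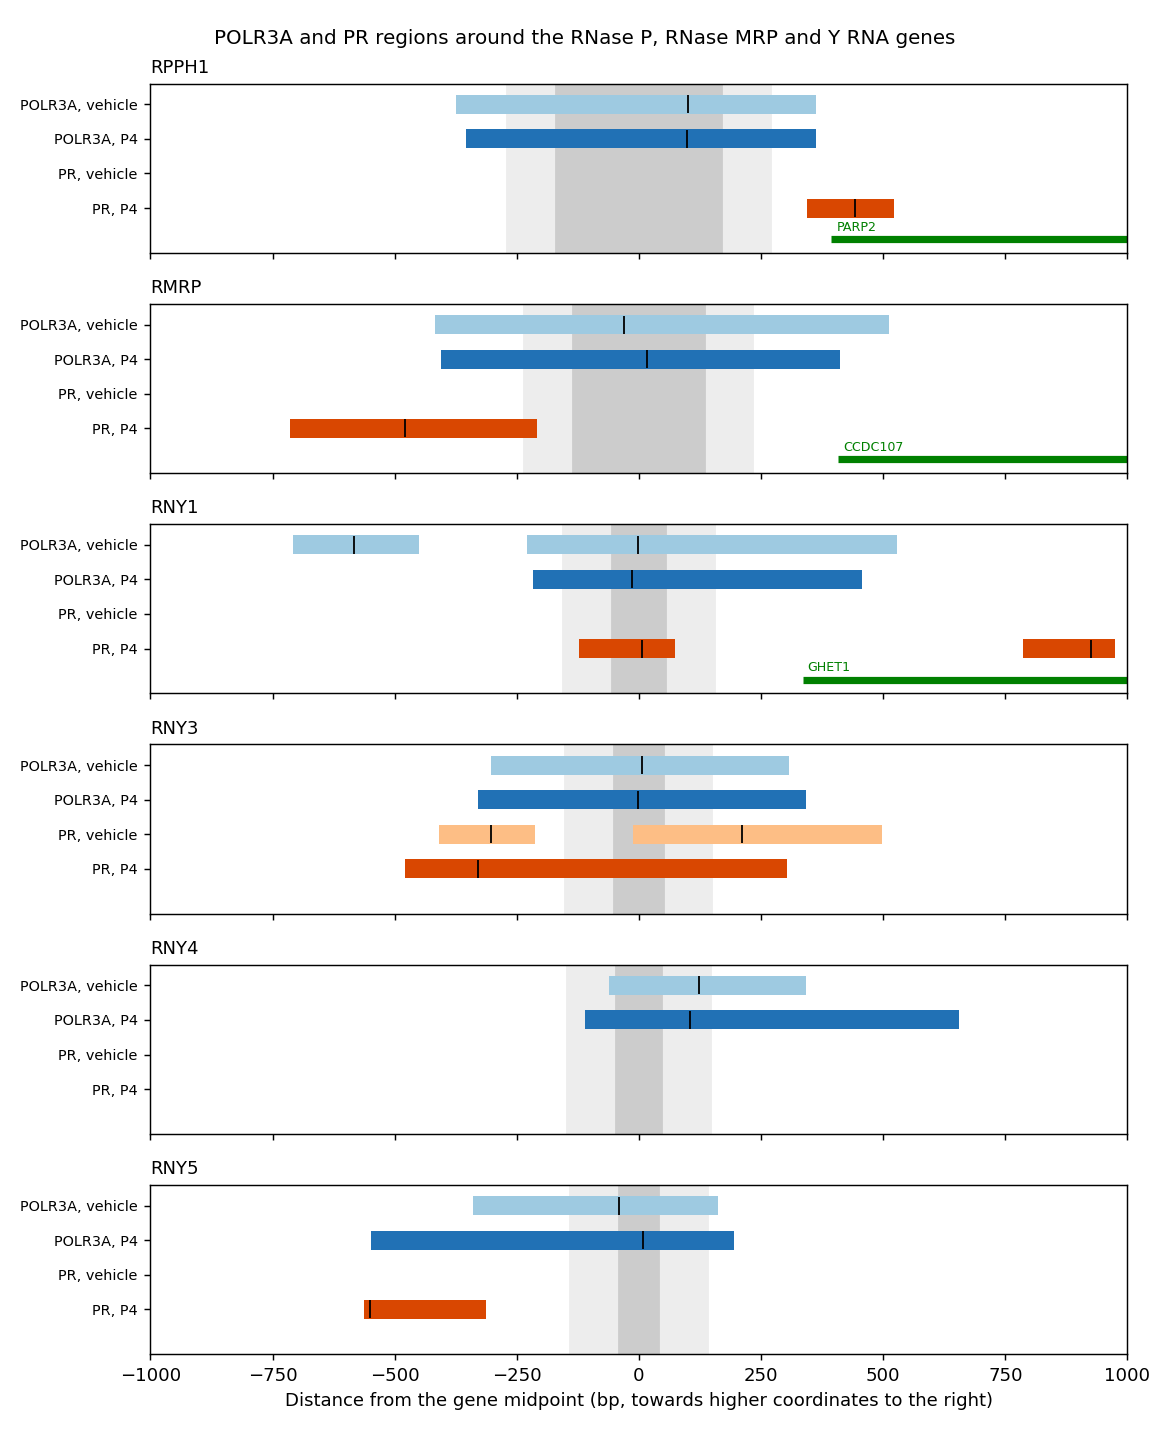
Peak regions (bars) and summits (black ticks) within 1 kb of each gene's midpoint, by antibody and treatment, with the gene body in grey, the 100-bp margins in pale grey and neighbouring genes in green. POLR3A regions cover all 6 genes in both lists, while the PR regions mostly lie to one side.

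The POLR3A regions reached past the genes. The vehicle list had widths of 405 bp (RNY4) to 931 bp (RMRP), and the P4 list 671 bp (RNY3) to 818 bp (RMRP), against medians of 280 and 276 bp over all POLR3A regions. At RPPH1 the region covered 219 of the 250 bases printed above in both lists, including those inside the gene. In both lists the region ended at the same base, 20343603, before the start of PARP2. At RMRP and RNY1 it covered all 250 bases in both lists. The RMRP region ended at 35658397 under vehicle and 35658296 under P4, in both cases past the first base of CCDC107 at 35658292.

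Set beside other genes of the polymerase, the members spread over a wide part of the range. Of the 429 tRNA genes, 353 had a POLR3A region in the vehicle list and 351 in the P4 list. Their medians of −log10 q were 353.9 and 354.2. These are counts of genes, and a region shared by neighbouring tRNA genes counts for each of them. RMRP exceeded 75.4% of the tRNA genes with a region under vehicle and 69.2% under P4, and RNY3 exceeded 72.8% and 78.9%. RNY5 exceeded 47.9% and 50.4%, RNY1 44.5% and 47.9%, and RPPH1 36.3% and 33.0%. RNY4 exceeded 13.0% and 17.7%. A further 13 listed genes, the U6, U6atac, 7SK, 7SL, vault and BC200 RNA genes, spanned 57.26 to 616.5 in the vehicle list and 72.77 to 589.4 in the P4 list, so that RNY4 lay below all of them in both lists.

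**Figure D3:**
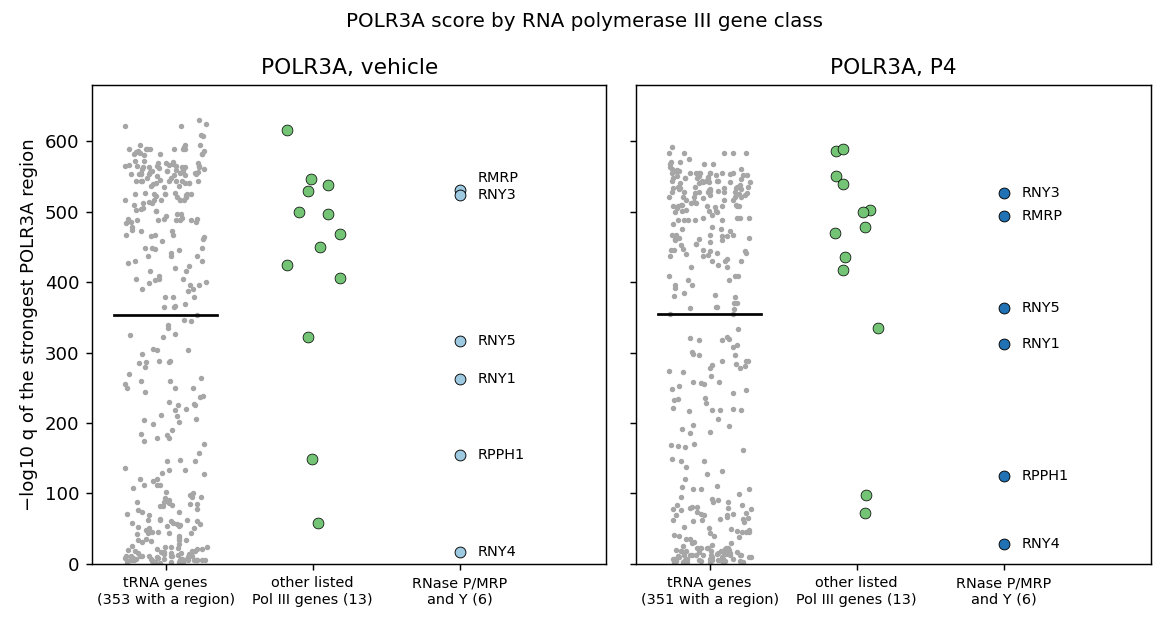
Vertical axis, −log10 q of the strongest POLR3A region of each gene, for tRNA genes with a region (grey, black line at the median), 13 other listed RNA polymerase III genes (green) and the 6 members (blue). RMRP and RNY3 lie in the upper part of the tRNA range and RNY4 near its foot, at 16.04 under vehicle and 28.07 under P4.

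PR was found at fewer of the genes, and its regions there stood lower in their own lists. In the vehicle list only RNY3 had a PR region in the window, and in the P4 list RNY3, RNY1 and RMRP had one. A PR region lay in the same window at 20.7% of all genes under vehicle and 37.3% under P4, and at 2.57% and 6.48% of the genes no longer than 400 bp. The PR P4 list was 2.86 times as long as the vehicle list, 111515 against 38933 regions. The part of that length in the member counts was not tested. Depth is unknown, because the lists hold no read counts.

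RNY3 had the strongest PR signal of the 6 genes. Under vehicle, 1 PR region lay beside it and a second covered part of it. The first ran from 148983397 to 148983592, 162 bp short of the gene, with a −log10 q of 5.64 and a fold of 4.37. The second ran from 148983794 to 148984303 with a −log10 q of 4.92 and a fold of 4.14, and covered 63 of the 102 bp of the gene. Under P4 there was 1 region of 782 bp, from 148983327 to 148984108, which covered the whole gene with a −log10 q of 24.59 and a fold of 8.39. Its percentile in the P4 list was 85.6, while the 2 vehicle regions stood at 48.5 and 42.5 of theirs, in lists of unequal length. The PR summit was 279 bp outside the gene under P4 and 253 and 160 bp outside it under vehicle, whereas both POLR3A summits were inside it. The P4 summit, at 148983476, was 26 bp from the summit of the first vehicle region, at 148983502.

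RNY1 was the gene at which both factors peaked at the same place. Under P4 its PR region of 197 bp (148987069 to 148987265) covered the gene, with a −log10 q of 9.17 and a fold of 4.99, percentile 70.8. The summit was 6 bp from the gene's midpoint and 20 bp from the POLR3A summit. No PR region of the vehicle list came closer to RNY1 than 2832 bp, and the nearest were the pair at RNY3. It was the only member with a PR summit inside the 100-bp window.

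RMRP met the rule only at the edge of the window. Its PR region under P4 (35657170 to 35657675, −log10 q 3.36, fold 3.36, percentile 28.7) ended 74 bp short of the gene and had 26 bp in the window. The summit was 345 bp from the gene, on the side away from CCDC107, so that no base of the promoter stretch printed above was in a PR region. A pair of further PR regions lay on the CCDC107 side under P4, 900 bp and 3765 bp from RMRP, with −log10 q of 3.96 and 5.25. The nearer lay within CCDC107, and the farther lay past the end of CCDC107 and within ARHGEF39. The vehicle list had no PR region within 5 kb of RMRP.

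RPPH1 and RNY5 had PR regions just outside the window, and only under P4. At RPPH1 the region (20343586 to 20343763, −log10 q 5.25, fold 3.99, percentile 52.5) began 174 bp from the gene and had its summit at 20343683, past the first base of PARP2 at 20343635. It covered the last 49 of the 250 bases printed above, and the receptor hexamer beside RPPH1, at 20343486 to 20343491, was not among them. At RNY5 the region (148940966 to 148941216, −log10 q 1.84, fold 2.73, percentile 4.35) ended 271 bp from the gene, and its summit was 13 bp from its outer end. RNY4 had no PR region within 2 kb in either list. Under P4 the nearest were a pair with the same −log10 q of 2.3 and the same fold of 2.94, 2544 bp below and 2443 bp above the gene.

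**Figure D4:**
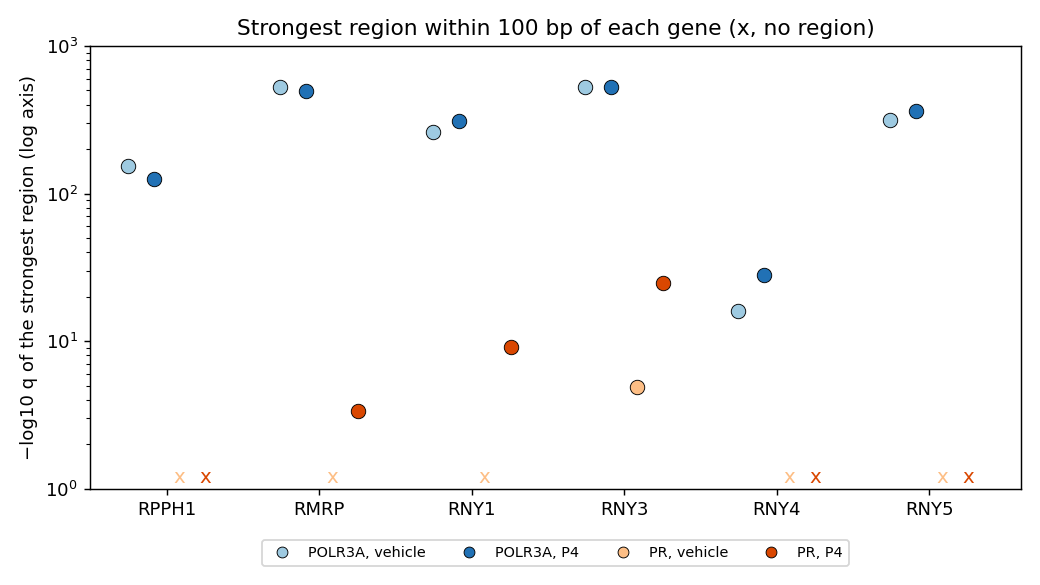
Vertical axis (log), −log10 q of the strongest region within 100 bp of each gene, by list, with x where the list had none. POLR3A values run from 16.04 to 531.0, and the 4 PR values from 3.36 to 24.59.

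With 500 bp on either side in place of 100 bp, a PR region was near 1 of the 6 genes under vehicle and 5 under P4, against 4.6% and 10.8% of the genes no longer than 400 bp. With 5 kb the counts were 2 and 6, against 17.0% and 34.3%. The second vehicle gene at 5 kb was RNY1, which the regions at RNY3 reached. Of the 9312 genes no longer than 400 bp, 5235 were pseudogenes, with PR at 0.84% and 3.08% in the 100-bp window. In that window PR was at 6 and 9 of the 13 other listed RNA polymerase III genes, under vehicle and P4. Shares of all genes and counts of the listed genes were not computed at 500 bp or 5 kb.

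The PR regions were next set against the POLR3A regions themselves, a comparison chosen after the positions had been seen. Under vehicle, PR overlapped the POLR3A region of RNY3 alone, by 90 and 320 bp. Under P4 it overlapped those of 5 genes, by 632 bp at RNY3, 236 bp at RNY5, 197 bp at RMRP, 197 bp at RNY1 and 18 bp at RPPH1. Of all POLR3A regions, 32.3% were overlapped by PR under vehicle and 50.5% under P4. Counted per tRNA gene with a POLR3A region, the strongest region was overlapped at 24.4% and 41.0%. A region shared by neighbouring tRNA genes counted once for each gene. The POLR3A regions as strong as that of RNY4 in the same list, or stronger, were also counted. Under vehicle 76.5% of 1402 regions were overlapped (−log10 q of at least 16.04), and under P4 77.0% of 761 (at least 28.07). The 2 thresholds differ, so these shares are not of the same kind of region. With the PR P4 list cut by −log10 q to 38933 regions, the length of the vehicle list, the P4 overlap remained at RNY1 and RNY3. The vehicle list was not shortened, so its overlap at RNY3 could not change. The shares above are for the uncut lists, and none was computed for the cut list. The distances between the PR and POLR3A summits under P4 were 20 bp at RNY1, 328 bp at RNY3, 344 bp at RPPH1, 495 bp at RMRP and 559 bp at RNY5. At RNY1 the PR summit lay inside the POLR3A region, and at the other 4 genes it lay past the region's edge, by 1 bp at RNY3, 2 bp at RNY5, 74 bp at RMRP and 80 bp at RPPH1.

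Across the Y RNA cluster, the strongest POLR3A regions of both lists and the strongest PR region of the P4 list stood at the genes. Between the outer ends of RNY5 and RNY1 there were 6 POLR3A regions in the vehicle list and 5 in the P4 list, and in each list 4 of them were at the genes. The others had −log10 q of 2.68 and 4.19 under vehicle and 3.22 under P4. PR had 2 regions in the span under vehicle, both around RNY3. The one over part of the gene had 4.92, and the one 162 bp short of it had the higher value, 5.64. The PR P4 list had 4 regions in the span. Those at RNY3 and RNY1 had 24.59 and 9.17, and the other 2 under P4 had 2.3 each. A PR region 730 bp past RNY1, within GHET1, had 3.96 under P4.

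**Figure D5:**
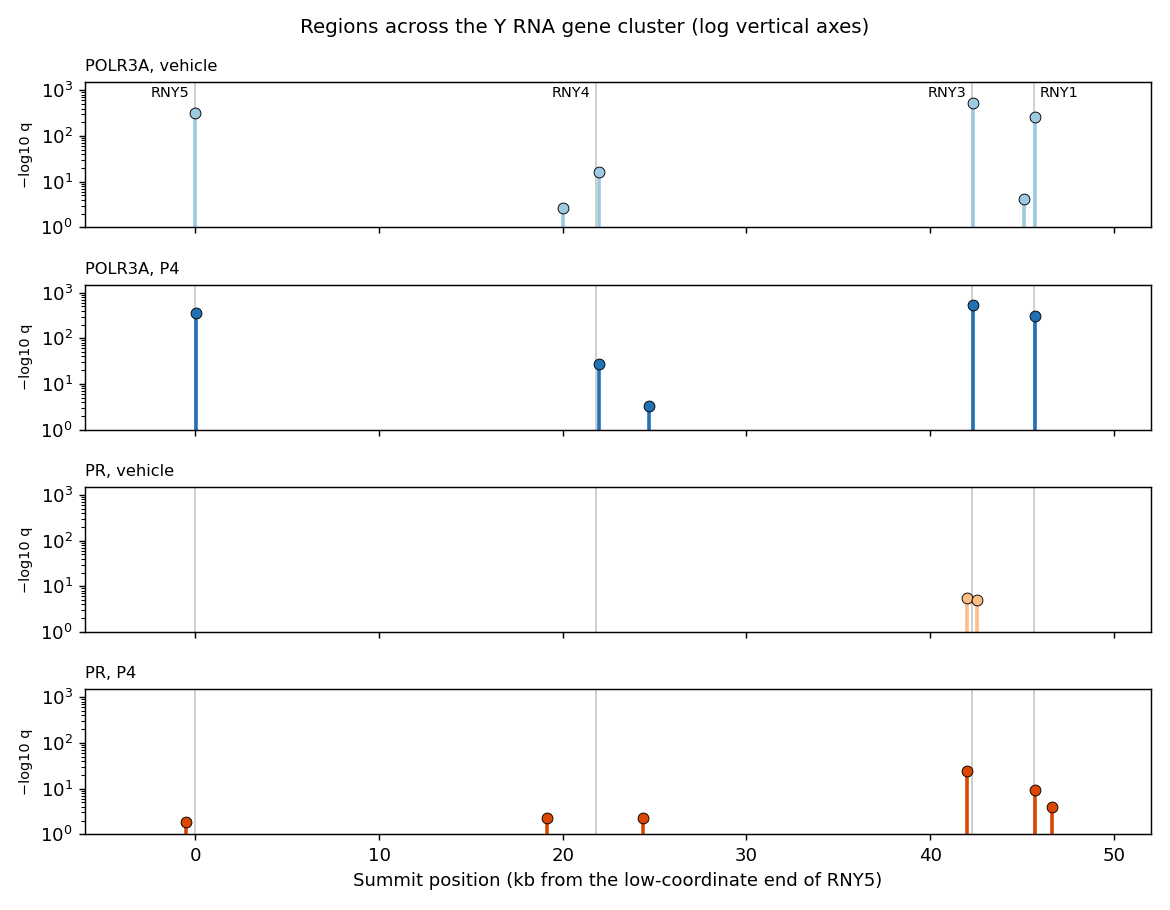
Summits of all regions within 5 kb of the Y RNA cluster, by position in kb from RNY5 (horizontal) and −log10 q (vertical, log), 1 panel per list, with grey lines at the genes. POLR3A stands highest at RNY3, RNY5 and RNY1, and the highest PR region, 24.59, is at RNY3 under P4.

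For each member, the genes of most similar pattern were sought among the other members and the 13 listed genes. The measure was the largest difference of percentile over the 4 lists, with 0 for a list without a region. All of these genes had POLR3A percentiles of at least 95.2, so the measure could hardly separate them by POLR3A strength. Genes without a PR region in the window therefore came out close to one another whatever their POLR3A −log10 q. RPPH1 was closest to the U6 gene RNU6-7 (0.0438 percentile points) and then to RNY5 (0.209). RNY5 was closest to the U6 genes RNU6-1 (0.151) and RNU6-9 (0.195). None of these had a PR region in the window. The POLR3A −log10 q of RPPH1 and RNY5 was nevertheless 154.0 and 316.8 under vehicle, and 124.9 and 362.6 under P4. RNY1 was closest to RNU6-2 (3.32) and VTRNA1-3 (15.5), and RMRP to the vault RNA gene VTRNA1-1 (7.16) and to RNU6ATAC (18.5). RNY4 was closest to BCYRN1 (3.5) and RNU6-7 (4.01), and RNY3 to RN7SK (14.3) and RN7SL1 (22.6). Among the 13 listed genes, 6 had PR regions in the vehicle list and 9 in the P4 list, with −log10 q up to 31.4 and 142.8.

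The Y RNA, RMRP and RPPH1 sequences also have 78 annotated pseudogene copies on the chromosomes analysed, 33 of them of RNY4, 16 each of RNY1 and RNY3, 10 of RNY5, 2 of RPPH1 and 1 of RMRP. None had a region in any of the 4 lists. Among all 5235 pseudogenes no longer than 400 bp, a region lay at 1.45% and 2.04% for POLR3A and 0.84% and 3.08% for PR, under vehicle and P4. How the authors treated reads that match several copies is not given in the sources used here.

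The genes of the proteins that join these RNAs were examined within 1 kb of either gene end. They were 11 genes for protein subunits of RNase P and RNase MRP and 2 for the Y RNA binding proteins Ro60 (RO60) and La (SSB). Of these 13 genes, 8 had POLR3A regions in the vehicle list and 7 in the P4 list, against 30.8% and 33.6% of protein-coding genes, and PR regions at 5 and 6, against 23.9% and 50.2%. At a −log10 q of at least 5, POLR3A was at 2 genes in each list, against 10.5% and 9.71% of protein-coding genes. They were POP1 and RO60 under vehicle and RPP38 and RPP40 under P4, so none passed in both lists. At the same threshold PR was at 1 and 3 genes, against 10.7% and 30.6% of protein-coding genes. The POLR3A scores were low beside those of the RNA genes. The highest under vehicle were RO60 with 7.56, POP1 with 5.85 and RPP38 with 4.75, which had 2.36, 3.13 and 6.01 under P4. For PR under P4 the highest were RO60 with 16.92, RPP38 with 6.29 and RPP30 with 5.84, which had 2.19, 5.39 and 3.7 under vehicle. POP7, RPP25L and SSB had no region in any list.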

How the data were processed

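ChIP-seq libraries of T47D cells (14 in all) were grouped by their titles. Per the submitters' processing notes, cutadapt, Bowtie2, MACS2 and the hg38 build were used, and the control and the combination of replicates are not given in the sources used here. Each of the 4 lists deposited by the authors gives, per region, a fold enrichment (a ratio), a −log10 q-value, a summit and a score of about 10 times −log10 q. Genes came from RefSeq (GRCh38.p14). Rows of alternate sequences were dropped, which kept 58419 of 59098. An overlap was at least 1 bp. No test was run, since each group has 1 list. Overlap counts over all genes equalled those of bedtools 2.31.1 in 4 of 4 lists, and the code was tested on simulated data with planted regions. Python 3.11.15 and pandas 2.3.3 were used. All members are named, with genes within 5 kb, the highest partner genes and the 2 genes of most similar pattern. The members and lists were chosen with earlier results of these data known. Alternatives were other windows, −log10 q of at least 5 or 10, summits, equal list lengths and rank by fold.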

Additional observations from a re-analysis of the deposited data

How the results depend on the processing

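POLR3A was at all 6 genes under each treatment with the gene body alone, 500 bp, 5 kb, −log10 q of at least 5 or 10, the summit in the window and lists of equal length. The wider windows could not lower this count, and equal length left the vehicle list whole. Both thresholds lay below the lowest member value, 16.04 under vehicle and 28.07 under P4. The PR count of 1 under vehicle became 2 with 5 kb, and 0 at −log10 q of at least 5, at 10 and by summit. The PR count of 3 under P4 became 5 with 500 bp, 6 with 5 kb, 1 at −log10 q of at least 10 (RNY3) and 1 by summit (RNY1). It was 2 with the gene body alone, at −log10 q of at least 5 and with lists of equal length, each time RNY1 and RNY3. The cause of these changes in count was not tested, beyond the positions given above. For the gene body alone, the −log10 q thresholds, summits and equal list lengths, the share of all genes was not computed. The member counts at those settings therefore cannot be set against a background. At 500 bp and 5 kb a share was computed for PR alone, over genes no longer than 400 bp. PR overlap of the member POLR3A regions under P4 fell from 5 to 3 at −log10 q of at least 5 and to 2 with lists of equal length, settings added after the data were seen. The median POLR3A percentile under vehicle was 99.5 by fold, against 99.4. Of the partner genes, PR under vehicle was at 3 with 500 bp and 1 at −log10 q of at least 5. At that threshold PR under P4 was at 3, and POLR3A at 2 under each treatment, with no gene in common. No paired analysis was possible because the lists hold no value per replicate, and leaving out a replicate was not possible for the same reason. Read depth is unknown, so a gene without a PR region shows only that none passed the authors' threshold.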
